A study of Mus musculus with 25 samples.

Results

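The change with time from 6 to 22 weeks on a normal laboratory diet (NLD, chow in the labels) was compared between 2 lines of male C57/BL6J mice, EKO (Apoe knockout) and DKO (knockout of both Apoe and Apoa1). Both lines therefore lack Apoe, and the DKO mice lack Apoa1 as well. The subject is a difference of changes: the change of a gene in EKO (22 weeks minus 6 weeks) minus its change in DKO, on log2(FPKM + 1), where FPKM counts fragments per length of transcript and per number of mapped reads. The 13 NLD libraries of whole aorta carry it, out of 25 libraries in the series: 3 of EKO at 6 weeks, 3 of EKO at 22 weeks, 4 of DKO at 6 weeks and 3 of DKO at 22 weeks. Feeding began at 8 weeks of age in all groups, the mice were perfused, and total RNA of the aorta was sequenced as unpaired reads of 50 nt. Every cell of these mice carries the deletions, and each library holds the RNA of all cell types of the vessel wall and of whatever tissue stayed attached to it. In such bulk samples fewer cells of a type and less RNA per cell cannot be told apart. In the labels each EKO library is called the re-analysis of a sample deposited before, which is said of no DKO library. Processing and genotype thus cannot be told apart where levels of EKO and DKO are set side by side. A shift common to all EKO libraries on the log2 scale would drop out of the difference of changes. Processing that differed between the EKO libraries of 6 and of 22 weeks would stay in it. Whether it differed is not stated, so it cannot be told apart from the subject.

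Apolipoprotein E lets the liver clear remnant lipoproteins from blood, and mice without it develop atherosclerosis, faster on a fatty diet. Apolipoprotein A-I is the main protein of high-density lipoprotein, which carries cholesterol away from cells. A second piece of background concerns sequence. A retrocopy is a copy of a spliced mRNA that was reverse transcribed and inserted elsewhere in the genome. It has no introns, so a short read across an exon junction of the parent gene can match the copy in 1 unbroken stretch, whereas on the parent it must be split over an intron. Short, highly transcribed genes, above all those for ribosomal proteins, have many retrocopies in mammals. Such a read matches both loci equally well.

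Genes were divided by sequence alone, with no expression value, from the annotated mouse transcripts (GENCODE M21, GRCm38, the assembly also called mm10). Transcripts were split into windows of 50 nt, the read length. A retrocopy parent is a gene with at least 1 window across an exon junction that occurs, without the intron, in a transcript of another gene. A copy is a gene that holds such a window of another gene inside an exon. Windows were looked up in annotated transcripts only, so copies outside the annotation were not seen. How reads of a shared window were divided between loci is not given in the sources used here, so the levels of both parents and copies are uncertain. The 4 windows that follow are each letter for letter the same in a parent and its copy, and they are shown because the values of these pairs are described further on. Lower case is the upstream exon of the parent and capitals are the downstream exon, 25 bases of each.

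Rpl34 and Rpl34-ps1: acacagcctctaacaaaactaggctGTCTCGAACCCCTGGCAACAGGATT

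Gapdh and Gm12070: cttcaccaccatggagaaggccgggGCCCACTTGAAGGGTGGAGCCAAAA

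Aldoa and Aldoart1: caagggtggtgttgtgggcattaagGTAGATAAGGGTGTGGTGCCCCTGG

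Rpl32 and Gm6251: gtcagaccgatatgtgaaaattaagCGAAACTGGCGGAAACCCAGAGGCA

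In GRCm38 the Rpl34 window lies on the minus strand of chromosome 3, at chr3:130729229-130729253 and, after an intron of 78 nt, chr3:130729126-130729150. Its uninterrupted match in Rpl34-ps1 lies at chr6:71124650-71124699 on the plus strand. The Gapdh window lies at chr6:125163139-125163163 and chr6:125163016-125163040 on the minus strand, with an intron of 98 nt between them, and matches chr11:26786929-26786978 (plus strand) in Gm12070. The Aldoa window spans an intron of 428 nt on the minus strand of chromosome 7 (chr7:126797337-126797361 and chr7:126796884-126796908) and matches chr4:72852056-72852105 (minus strand) in Aldoart1. The Rpl32 window spans an intron of 634 nt on the minus strand of chromosome 6 (chr6:115807802-115807826 and chr6:115807143-115807167) and matches chr10:20208561-20208610 (plus strand) in Gm6251. Along their whole aligned length Rpl34-ps1 is 99.4% identical to Rpl34 (352 of 354 bases), Gm12070 99.9% to Gapdh (1001 of 1002), Gm6251 97.5% to Rpl32 (388 of 398) and Aldoart1 93.4% to Aldoa (1399 of 1498).

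The 3 EKO libraries of 22 weeks stood apart from the other 10 before any gene was tested. Their FPKM summed to 508235 to 556933, against 371400 to 398504 in the other 10 libraries, and retrocopy parents took 22.2% to 23.2% of that sum, against 16.0% to 18.2%. Ppia, a cyclophilin that the study used as the reference gene for qPCR and itself a retrocopy parent, lay at 1030 to 1348 FPKM in EKO at 22 weeks and at 516 to 842 FPKM in the other 10. Apoe was listed at 8.25 to 14.6 FPKM in EKO at 22 weeks and at 2.97 to 10.1 FPKM elsewhere, although both lines carry its knockout. These Apoe ranges overlap. Neither Ppia nor Apoe passed the test described next (limma adjusted p = 0.0649 and 0.374). Apoa1 was listed at 0 to 0.555 FPKM in all 13 libraries, so it could not separate DKO from EKO and checks no label. The table gives no counts, so the depth of each library is unknown.

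Of 23284 genes, 12755 had a mean of at least 1 FPKM over the 13 libraries and were tested, and 3555 were listed at 0 in all of them. The difference passed the test (limma, Benjamini-Hochberg adjusted p under 0.05) in 531 genes, 4.16% of those tested. In 428 of them it was above 0 (called higher, 3.36%) and in 103 below 0 (called lower, 0.808%). The median difference over all genes tested was 0.07 on the log2 scale, and 7398 genes (58%) lay above 0. After rescaling the libraries by median ratios this median became -0.03 and the calls 291 higher and 122 lower, so the higher share of all calls went from 80.6% to 70.5%.

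The calls came from the EKO side of the comparison. All 428 genes called higher had a change above 0 in EKO, with a median of 1.09 on the log2 scale, while their median change in DKO was 0.04 and 416 of them moved by less than 0.5 there. In 413 of the 428 the 3 EKO libraries of 22 weeks lay above each of the other 10 libraries, an order seen in 14.4% of all genes tested. Of the 103 genes called lower, 101 had a change below 0 in EKO (median -1.67), and their median change in DKO was 0.01. In 95 of them the 3 EKO libraries of 22 weeks lay below all others, against 6.35% of all genes tested. The calls were made on these same values, so both orders follow largely from the selection and are no separate support. Without EKO NLD 6 weeks replicate 1, which had the lowest weight when limma weighted the libraries by their fit, the genes called lower numbered 200 in place of 103. The libraries are separate samples per the labels, and p-values measure the spread between them only.

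Retrocopy parents accounted for 210 of the 428 genes called higher. Of 1130 parents tested, these 210 are 18.6% (against 3.36% of all genes tested), and 1 parent, Rpl34, was called lower. Their median difference was 0.30 and 79.1% lay above 0. The called copies went mostly the other way: of 357 tested, 47 were called lower (13.2%, against 0.808% of all) and 20 higher (5.6%). As a class the copies lay near 0, with a median difference of -0.06, 44.8% above 0 and 290 not called. Of 43 copies annotated as processed pseudogenes 20 were called lower (46.5%), and of 285 protein-coding copies 15 (5.26%). A further 504 genes that share 5% or more of their windows with another gene in other ways had 21 called higher and 5 lower, and 124 genes that could not be placed in the annotation had 7 and 4. The 10639 genes with under 5% of shared windows had 170 called higher (1.6%) and 46 lower (0.432%), with a median difference of 0.05. Leaving out 1 library moved these 2 counts between 97 (without EKO NLD 6 weeks replicate 3) and 249 and between 26 and 136 (without EKO NLD 6 weeks replicate 1). Processed pseudogenes, whatever their class, had 38 of 77 called lower and 13 called higher.

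**Figure D1:**
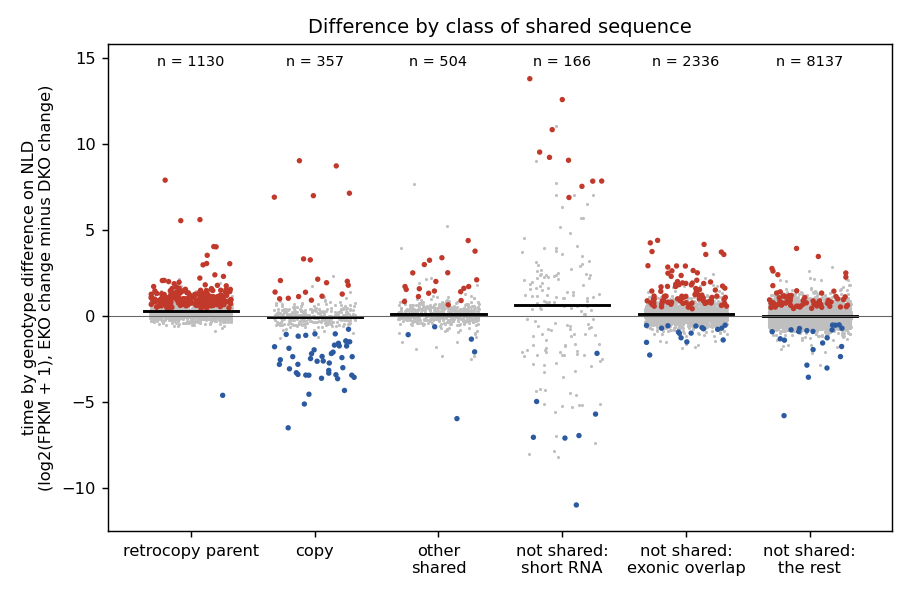
Difference of the changes with time (EKO minus DKO, log2 scale, vertical axis) for every gene tested, by class of shared sequence, with genes called higher in red, genes called lower in blue, the rest in grey and the class median as a black line. Retrocopy parents sit mostly above 0 with 210 called higher, and the copies hold 47 genes called lower among 357.

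The more of a parent's junction windows were shared, the more often it was called. Of 572 parents with up to 25% of their junction windows found elsewhere, 8.57% were called higher and the median difference was 0.17. The share called was 22.5% of 280 parents from 25% to 50%, 34.3% of 169 parents from 50% to 75% and 36.7% of 109 parents above 75%, with medians of 0.42, 0.52 and 0.69. These parents also became shorter along that order, with median transcript lengths of 2930, 2161, 1883 and 1678 nt. Length and shared junctions thus moved together, and their separate parts in the result were not tested.

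Length ordered the genes with little shared sequence as well. Among the 8137 genes that had under 5% of their windows shared, under 5% of their exons overlapped by another gene and were no short RNA, the median difference was 0.46 in 30 genes up to 500 nt, 0.40 in 311 genes up to 1000 nt, 0.21 in 1515 genes up to 2000 nt, 0.05 in 3245 genes up to 4000 nt and -0.08 in 3036 longer genes. Retrocopy parents of the same 5 length ranges had higher medians in each, at 1.06, 1.04, 0.49, 0.22 and 0.02, and 62.5%, 53.5%, 24.3%, 10.7% and 4.08% of them were called higher. In the 8137 genes those shares were 3.33%, 3.22%, 1.91%, 0.832% and 0.0988%. At every length the parents were thus called more often, a count that carries no test of its own.

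**Figure D2:**
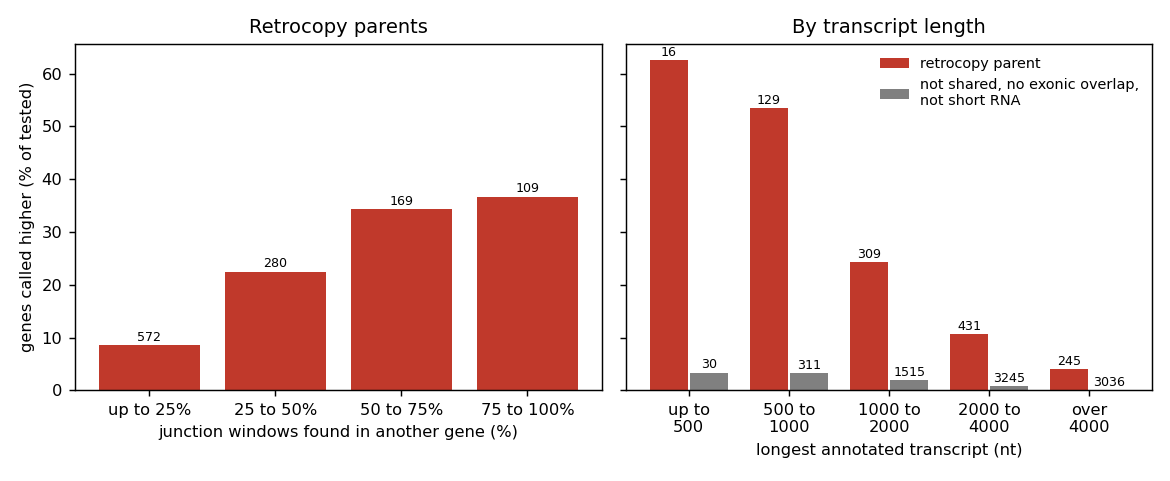
Percent of genes called higher, by share of junction windows found elsewhere in retrocopy parents and by length of the longest transcript in parents and in genes with under 5% of shared windows and of exonic overlap, with the number of genes tested above each bar. Parents go from 8.57% to 36.7% called with the share of junction windows, and within each length range their bar is above that of the other genes.

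Rpl34 and its copy exchanged places in the table. Rpl34, a protein of the large ribosomal subunit, lay at 262, 267 and 307 FPKM in EKO at 6 weeks and at 16.2, 8.90 and 6.27 FPKM in EKO at 22 weeks. In DKO it lay at 226 to 289 FPKM at 6 weeks and 225 to 247 FPKM at 22 weeks, so the 3 EKO libraries of 22 weeks were far below the other 10. The difference was -4.60 ± 0.33 (SE, limma adjusted p = 2.60e-06). Rpl34-ps1, its processed pseudogene, was listed at 4.15, 0 and 0 FPKM in EKO at 6 weeks and at 765, 733 and 646 FPKM at 22 weeks. In DKO it was at 0 in 5 of 7 libraries and at 39.5 and 7.07 FPKM in replicate 1 of 6 and of 22 weeks. Its difference of 9.02 ± 1.96 (limma adjusted p = 0.0286) passed the test in 6 of 13 fits that left out 1 library, and reached at most an adjusted p of 0.0839. Summed over both loci the group means were 280 and 725 FPKM in EKO at 6 and 22 weeks and 263 and 238 FPKM in DKO, a difference of 1.51. FPKM is divided by length, and the longest transcripts have 711 nt in Rpl34 and 354 nt in Rpl34-ps1. The same reads thus give the copy a higher FPKM, and the sum is no sum of reads.

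Gapdh, the glycolytic enzyme often taken as a constant reference, had the second largest difference among the called parents. It was listed at 27.8, 27.4 and 16.8 FPKM in EKO at 6 weeks, at 1509, 984 and 2042 FPKM in EKO at 22 weeks, and at 23.4 to 40.8 FPKM in the 7 DKO libraries. The groups did not overlap, and the difference was 5.60 ± 0.38 (limma adjusted p = 1.49e-06). Its copy Gm12070 moved the same way, from 0.141 to 0.221 FPKM to 188, 123 and 249 FPKM in EKO, against at most 0.376 FPKM in DKO, a difference of 7.14 ± 0.26 (limma adjusted p = 6.55e-09). This was 1 of 3 pairs in which copy and parent were both called higher.

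Gm6251 and Aldoart1 show the opposite and more common order. Gm6251, a processed pseudogene of Rpl32, was at 0 in all 3 EKO libraries of 22 weeks and at 66.0 to 110 FPKM in the other 10, with a limma adjusted p of 1.33e-10. Its fitted difference rests on a group at 0 and on the pseudocount of 1 FPKM, and is no fold. Rpl32 itself, a large subunit protein, went from a mean of 273 to 549 FPKM in EKO and from 283 to 271 FPKM in DKO and was called higher (difference 1.05, limma adjusted p = 0.00748). Aldoart1, a retrocopy of the aldolase gene Aldoa, lay at 37.2, 35.6 and 22.9 FPKM in EKO at 6 weeks, at 0.264, 0.187 and 0.485 FPKM at 22 weeks and at 31.6 to 70.1 FPKM in DKO, a difference of -5.10 ± 0.33 (limma adjusted p = 1.03e-06). Aldoa, at 364 to 587 FPKM in EKO at 6 weeks and 909 to 1891 FPKM at 22 weeks, had a difference of 0.98 ± 0.43 and did not pass the test (limma adjusted p = 0.229).

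**Figure D3:**
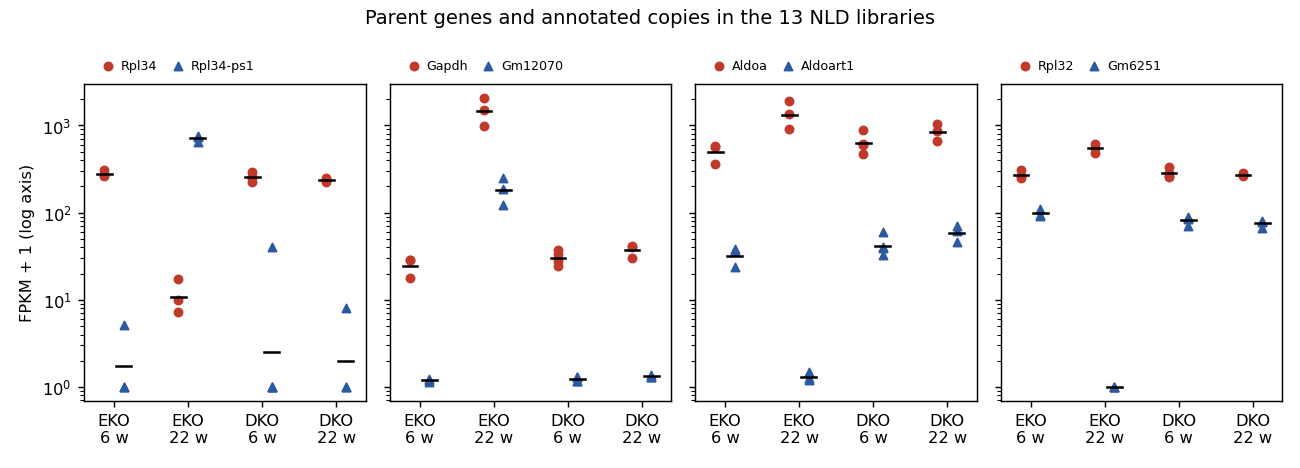
FPKM + 1 (log axis) in each of the 13 libraries for 4 parents and their copies, with points for libraries and bars for the geometric mean of each group. In EKO at 22 weeks Rpl34 lies below and Rpl34-ps1 above the other 10 libraries, Gapdh and Gm12070 are both high, and Gm6251 and Aldoart1 are at or near 0.

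Over all pairs with a copy called lower, 47 in number with 44 distinct parents, 17 parents were called higher, none lower, and 45 had a difference above 0. The median difference was -2.47 for these copies, 0.76 for their parents and 0.32 for the summed FPKM of both. The median of the sum was 1.13 in the pairs with a copy called higher and 0.60 in those with a copy not called. These sums were not corrected for the unlike lengths of parent and copy, so they are no sums of reads. Csl, a copy of the citrate synthase gene Cs, and BC048507, a copy of the dynein light chain gene Dynll1, were among the strongest of them (limma adjusted p = 8.64e-05 and 1.51e-07). Csl had a difference of -4.54 ± 0.47. BC048507 was at 0 in all 3 EKO libraries of 22 weeks and at 13.2 to 26.9 FPKM in the other 10, and like that of Gm6251 its fitted difference is no fold. Aldoart2, a second aldolase retrocopy that shares under 5% of its windows with other genes and so counted as not shared, behaved like Aldoart1, with 28.5 to 88.6 FPKM in the other 10 libraries, at most 0.0467 FPKM in EKO at 22 weeks and a difference of -5.78 ± 0.32 (limma adjusted p = 2.32e-07).

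Copies called higher formed 17 pairs with 15 parents, of which 13 pairs had a parent that was not called. Gm1821, a pseudogene that shares windows with the ubiquitin gene Ubb, was at 0 in the 10 other libraries and at 427, 435 and 402 FPKM in EKO at 22 weeks (limma adjusted p = 8.06e-14). Ubb had means of 590 and 504 FPKM in EKO and 529 and 571 FPKM in DKO, a difference of -0.33 (limma adjusted p = 0.282). Gm6793, a copy of the RNA-binding protein gene Hnrnpa3, was likewise at 0 in the 10 other libraries and at 115, 137 and 127 FPKM in EKO at 22 weeks, while Hnrnpa3 had a difference of 0.28 (limma adjusted p = 0.316). Of the 20 copies called higher, 3 were listed at 0 in all 10 other libraries. Such genes passed the filter on the mean only through EKO at 22 weeks. Groups at 0 add no spread, so their small p-values rest on the floor, and their fitted differences are no folds.

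Ribosomal proteins made up the largest single group of called parents among the gene lists. Of 82 genes of the cytosolic ribosome tested, 65 were called higher and 1 lower, their median difference was 1.13 against 0.07 for all genes, and in 75 the EKO libraries of 22 weeks lay above the other 10. The median change was 1.08 in EKO and -0.07 in DKO. The summed FPKM of the 48 large subunit genes lay at 8971 to 9382 in EKO at 6 weeks, 20491 to 24093 in EKO at 22 weeks, 9117 to 10320 in DKO at 6 weeks and 8955 to 9591 in DKO at 22 weeks. The large subunit had 39 genes called higher and the small subunit 26 of 34.

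Of these 82 genes 78 are retrocopy parents, and all 65 called higher are among them. The 12 ribosomal parents that were not called are Rpl4, Rpl5, Rpl7, Rpl22, Rpl22l1, Rpl26, Rpl30, Rps3a, Rps4x, Rps6, Rps27 and Rps29. Leaving out any 1 library gave 59 to 65 ribosomal genes called higher.

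The largest differences among parents came from genes listed at very low levels in some groups. Rpl35, a large subunit protein, lay at 1.15, 1.05 and 2.03 FPKM in EKO at 6 weeks, at 579, 553 and 479 FPKM in EKO at 22 weeks and at 214 to 261 FPKM in DKO. DKO therefore held Rpl35 at a level between the 2 EKO times, and the difference was 7.89 ± 0.20 (limma adjusted p = 1.99e-10). Besides its shared junctions, 66.2% of the exons of Rpl35 are overlapped by another gene, Wdr38. Rpl21, also of the large subunit, lay at 3.81 to 3.97 FPKM in EKO at 6 weeks and 2.31 to 3.43 FPKM in DKO, and at 186, 245 and 218 FPKM in EKO at 22 weeks (difference 5.54 ± 0.16, limma adjusted p = 7.15e-10). Rpl7a went from 29.6 to 31.0 FPKM to 539, 501 and 485 FPKM in EKO, with 25.3 to 32.4 FPKM in DKO (4.04 ± 0.14, limma adjusted p = 3.42e-09). Rpl29, Rplp2, Rps12 and Rpl17, with differences of 4.02, 3.53, 3.06 and 3.04, had the same order, with EKO at 22 weeks above the other 10 libraries. Their SEs lay between 0.14 and 0.20.

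Outside the ribosome 145 of 1052 parents were called higher (13.8%, against 3.36% of all genes tested) and none lower, and 108 of the 900 parents that belong to no gene list (12%). Among translation factors 9 of 31 were called higher, among them Naca, a chaperone of nascent chains (0.88 ± 0.13, limma adjusted p = 0.00187), and the initiation factor Eif5a (0.88 ± 0.15, limma adjusted p = 0.00453). Of 36 proteasome genes 7 were called higher, all of them parents. Psme2, a subunit of the proteasome activator, went from 29.7 to 40.0 FPKM to 129 to 148 FPKM in EKO against 36.7 to 51.3 FPKM in DKO (1.82 ± 0.17, limma adjusted p = 3.65e-05), and Psmb3, a subunit of the core particle, had a difference of 1.23 ± 0.16. Hmgb1, a chromatin protein, went from 20.6 to 24.6 FPKM to 67.4 to 87.3 FPKM in EKO and stayed at 19.9 to 23.5 FPKM in DKO (1.79 ± 0.15, limma adjusted p = 1.26e-05). It led 5 of 18 histone and HMG genes called higher, with the histone variant gene H3f3a at 0.76 ± 0.14. The DNA synthesis genes Tyms (1.32 ± 0.13) and Mcm7 (0.94 ± 0.19), both parents, were 2 of 4 cell cycle genes called higher among 20.

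Genes of oxidative phosphorylation had the same direction with fewer calls. Of 84 subunits tested 15 were called higher and none lower (17.9%, against 3.36% of all genes), 81 had a difference above 0, and the median was 1.03. The median change was 1.36 in EKO and 0.32 in DKO. Complex I had 9 called of 37, complexes II and III 1 of 14, complex IV 0 of 16 (13 with an unadjusted p under 0.05 by limma) and complex V 5 of 17. The 54 subunits with under 5% of shared windows had 8 called and a median of 0.98, and 41 of them that also have under 5% of exonic overlap had 4 called and a median of 1.00. The count of 8 was 1 to 16 when 1 library was left out, 3 after median-ratio rescaling, 2 when genes with under 5% of shared windows were fitted alone (chosen after seeing the data) and 0 with the spread of all 25 libraries.

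Atp5k, a subunit of ATP synthase and a parent, had the largest difference of the oxidative phosphorylation genes named here, at 172, 193 and 118 FPKM in EKO at 6 weeks, 719, 986 and 1245 FPKM in EKO at 22 weeks, 168 to 278 FPKM in DKO at 6 weeks and 243 to 390 FPKM in DKO at 22 weeks (2.07 ± 0.37, limma adjusted p = 0.00695). Atp5h, another subunit of it, had 1.54 ± 0.32 (limma adjusted p = 0.0186). Ndufa13, a complex I subunit without shared junctions, lay at 35.2 to 52.3 FPKM in EKO at 6 weeks, at 107 to 133 FPKM at 22 weeks and at 45.6 to 73.4 FPKM in DKO (1.16 ± 0.23, limma adjusted p = 0.0119). Another gene, Tssk6, overlaps 30.0% of its exons. Ndufs7 and Atp5d, named after their values were seen because they have under 5% of shared windows and of annotated exonic overlap, both had 1.34, with SEs of 0.34 and 0.32 and limma adjusted p of 0.049 and 0.0398. These calls were fragile. Ndufs7 passed the test in 2 and Atp5d in 3 of 13 fits that left out 1 library.

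The count of 15 moved widely with single libraries, to 36 without DKO NLD 6 weeks replicate 1, to 8 without DKO 6 weeks replicate 3, to 6 without EKO 22 weeks replicate 3, to 4 without DKO 22 weeks replicate 1, and to 3 without DKO 22 weeks replicate 2 or without EKO 6 weeks replicate 3. Brown adipocyte markers moved with these genes. The summed FPKM of 12 such markers, none of them at 0 in all libraries, lay at 1185 to 1907 in EKO at 6 weeks, 4307 to 8007 in EKO at 22 weeks, 1575 to 3941 in DKO at 6 weeks and 3621 to 6311 in DKO at 22 weeks. Their median difference was 1.11, 0 of 12 were called by limma and 4 had an unadjusted p under 0.05. Ucp1, which uncouples respiration in brown fat, was at 369 to 540 FPKM in EKO at 6 weeks, 1317 to 2551 FPKM in EKO at 22 weeks, 483 to 1399 FPKM in DKO at 6 weeks and 1038 to 2234 FPKM in DKO at 22 weeks, a difference of 1.296 ± 0.579 (limma adjusted p = 0.243). The part of adipose tissue on the aorta in the difference of the respiratory genes was not tested.

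Related mitochondrial lists lay on the same side. The mitochondrial ribosome had 11 of 76 genes called higher (against 3.36% of all genes tested) and 75 above 0 (median 0.64), led by Mrpl23 (1.45 ± 0.13, limma adjusted p = 2.36e-05) and Mrpl27 (1.42 ± 0.23), both of the large subunit and both retrocopy parents. Leaving out 1 library moved this count between 6 and 18, with 6 or 7 reached without DKO 6 weeks replicate 2, 3 or 4, DKO 22 weeks replicate 1 or 2, EKO 6 weeks replicate 2 or 3, or EKO 22 weeks replicate 3, and 18 without DKO 6 weeks replicate 1. The citrate cycle had a median of 0.77 with 0 of 21 called (3 with an unadjusted p under 0.05 by limma), and fatty acid oxidation 0.80 with 0 of 23 called (7 above and 1 below 0 at an unadjusted p under 0.05). Of all 12755 genes tested, 2529 had an unadjusted p under 0.05 by limma, 1836 of them above 0.

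**Figure D4:**
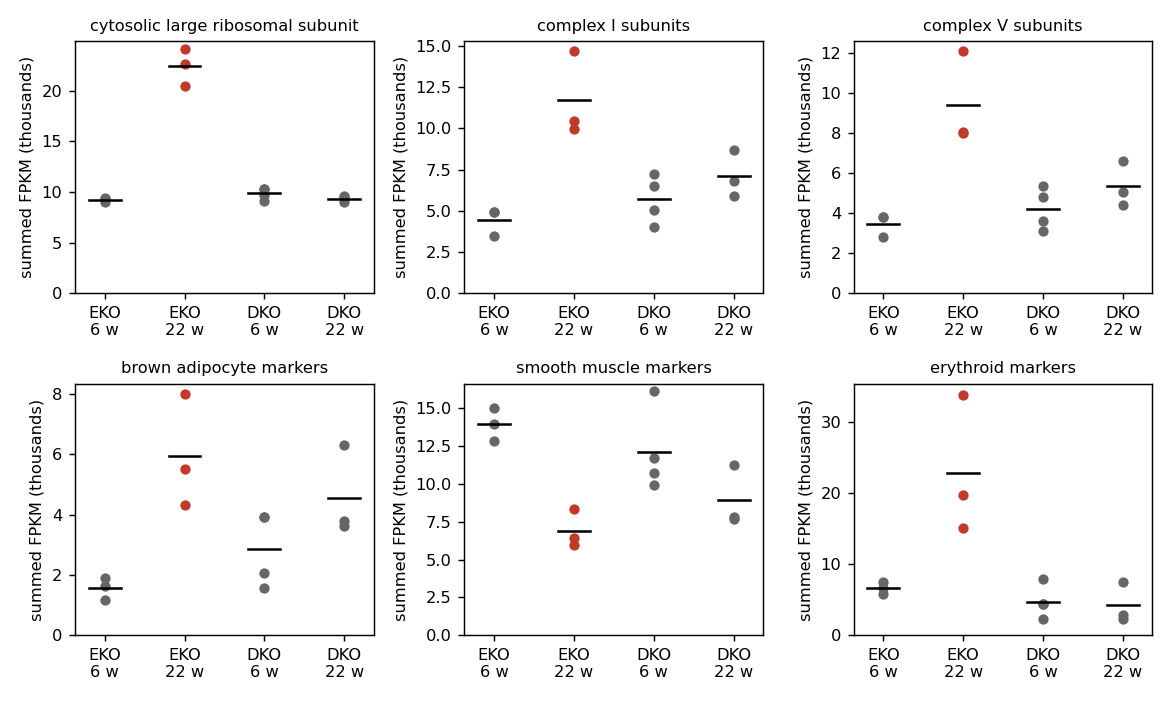
Summed FPKM divided by 1000 of the genes of several lists in each of the 13 libraries, with bars for group means and EKO at 22 weeks in red. The large ribosomal subunit sums to 20491 to 24093 in EKO at 22 weeks and to at most 10320 in every other library, while the brown adipocyte markers of DKO at 22 weeks (3621 to 6311) overlap those of EKO at 22 weeks (4307 to 8007).

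Genes with under 5% of shared windows fell into 3 groups of unlike kind. The first is 166 genes of under 200 nt, mostly microRNA and small nucleolar RNA genes. Of these 10 were called higher (6.02%) and 7 lower (4.22%), against 3.36% and 0.808% of all genes tested. A microRNA is cut from a hairpin to a mature strand of about the length printed next and guides silencing through its seed, bases 2 to 8, in capitals. The reads of 50 nt are longer than any mature strand, so the FPKM of these genes cannot be reads of the mature form alone. Of the 12 microRNA genes described next, mature sequences from RefSeq (GRCm38.p6) are shown for 5, chosen after their values were seen.

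miR-1954: aCUGCAGAgugagacccuguu

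miR-1896: cUCUCUGAuggugggugaggag

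miR-140-3p: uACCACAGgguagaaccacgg

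miR-682: cUGCAGUCacagugaagucug

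miR-3101-3p: uAGCUUUGguggauggucuuu

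miR-3101-5p: gGUACCAUugacuaaagcuag

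No seed is shared among the 6 strands. They lie at chr2:32652342-32652362 (miR-1954, plus strand), chr13:21445209-21445230 (miR-1896, plus), chr8:107551288-107551308 (miR-140-3p, plus), chr13:75645119-75645139 (miR-682, plus), chr7:27176020-27176040 (miR-3101-3p, minus) and chr7:27176058-27176078 (miR-3101-5p, minus).

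Mir1896 and Mir1954 were listed at 0 in all 10 other libraries. In EKO at 22 weeks Mir1896 was at 675, 535 and 580 FPKM and Mir1954 at 304, 169 and 229 FPKM (limma adjusted p = 2.93e-13 and 4.96e-10). Mir682 had the reverse pattern, at 2700 to 4103 FPKM in EKO at 6 weeks, 3191 to 5386 FPKM in DKO and 0.600, 0.666 and 0 FPKM in EKO at 22 weeks (difference -10.96 ± 0.32, limma adjusted p = 7.29e-10). Mir3101 lay at 88.5 to 138 FPKM in EKO at 6 weeks, at 1.31, 2.91 and 0 FPKM at 22 weeks and at 107 to 334 FPKM in DKO (-4.96 ± 0.61, limma adjusted p = 0.000346).

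In several of these genes it was DKO that moved. Mir140 lay at 663 to 1351 FPKM in DKO at 6 weeks and at 0, 5.31 and 0 FPKM in DKO at 22 weeks, against 218 to 638 FPKM and 267 to 961 FPKM in EKO (difference 9.05 ± 0.98, limma adjusted p = 0.000143). Mir1982 had the same order, 347 to 554 FPKM in DKO at 6 weeks and 4.27, 3.77 and 0 FPKM at 22 weeks (7.84 ± 0.97). Mir186, Mir707 and Snord23, a small nucleolar RNA gene, were near 0 except in DKO at 22 weeks, where they lay at 143 to 324, 121 to 144 and 26.1 to 88.5 FPKM, with differences of -7.08 ± 0.56, -6.94 ± 0.33 and -5.69 ± 0.49. Mir3960 (9.52 ± 0.68) was at 0 in EKO at 6 weeks alone, and Snord83b (-7.04 ± 0.47) lay at 87.9 to 249 FPKM in EKO at 6 weeks and at most at 0.684 FPKM elsewhere. Mir5133, Mir762 and Mir5107 had the largest values of all, 13.78, 12.57 and 10.83, with SEs of 2.02, 2.51 and 1.79, and uneven levels within DKO at 6 weeks. All of these values rest on groups at or near 0 and depend on the pseudocount of 1 FPKM. Mir140, Mir1982, Mir707, Mir3960, Mir1896, Mir682, Mir3101, Mir5133 and Mir762 lie 100% within exons annotated to another gene on either strand. Mir5107 overlaps such exons by 13.6%, and Mir1954, Mir186, Snord23 and Snord83b by 0%. Where there is overlap, reads of the other gene cannot be told apart from those of the microRNA gene. Without DKO NLD 22 weeks replicate 2 the short RNA genes called lower numbered 15 in place of 7.

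The second group is 2336 genes with 5% or more of their exons overlapped by another gene, of which 90 were called higher (3.85%) and 17 lower (0.728%), against 3.36% and 0.808% of all genes tested. The genes named next were chosen after their values were seen. Sla2, an adaptor of lymphocyte receptor signalling, overlaps Rab5if and went from 0.101 to 0.409 FPKM to 17.5, 17.2 and 24.6 FPKM in EKO, with 0.0477 to 0.304 FPKM in DKO (4.16 ± 0.20, limma adjusted p = 6.16e-08). Wdr92, which overlaps the calcineurin subunit gene Ppp3r1, went from 2.83 to 2.94 FPKM to 44.3, 50.2 and 62.0 FPKM (3.72 ± 0.15, limma adjusted p = 1.19e-08). Snx22, a sorting nexin gene that overlaps the cyclophilin gene Ppib, went from 0.997 to 1.18 FPKM to 25.1, 25.7 and 20.8 FPKM (3.58 ± 0.13), while Ppib had a difference of -0.53 ± 0.17 that did not pass the test (limma adjusted p = 0.115). Prss57, a serine protease gene, and Fstl3, a secreted activin inhibitor, overlap each other and were called in opposite directions, 3.58 ± 0.14 and -1.26 ± 0.24. Over the 69 genes called higher whose overlap partner was tested, the partner was called higher in 2 and lower in 3, with a median difference of 0.04. The 17 genes called lower became 31 without EKO NLD 6 weeks replicate 1 and 6 to 11 without DKO 6 weeks replicate 3 or 4, any 1 of the DKO 22 weeks libraries, EKO 6 weeks replicate 2 or 3, or EKO 22 weeks replicate 1. Reads from overlapping genes cannot be assigned to 1 of them from these values.

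The third group, the 8137 genes that also have under 5% of exonic overlap and no short transcript, had the lowest share of calls: 70 higher (0.86%, against 3.36% of all genes tested) and 22 lower (0.27%, against 0.808%), with a median difference of 0.03. After median-ratio rescaling the split turned, to 25 higher and 35 lower with a median of -0.06, and rescaling over the genes with under 5% of shared windows gave 29 and 28. The genes that follow were again chosen after their values were seen, Actc1 apart. Lars2, the leucyl-tRNA synthetase of mitochondria, lay at 66.5, 73.0 and 46.2 FPKM in EKO at 6 weeks, at 166, 184 and 188 FPKM at 22 weeks, at 124 to 160 FPKM in DKO at 6 weeks and at 59.1 to 101 FPKM in DKO at 22 weeks. The 2 genotypes thus moved in opposite directions, and the difference was 2.26 ± 0.29 (limma adjusted p = 0.000453). Cpne8, a copine that binds membranes in response to calcium, went from 3.34 to 5.09 FPKM to 34.1 to 40.7 FPKM in EKO and stayed at 3.49 to 4.94 FPKM in DKO (2.62 ± 0.18, limma adjusted p = 2.11e-06). It shares 4.94% of its windows with other genes, just under the limit of 5%. Glrx5, a mitochondrial protein of iron-sulfur cluster assembly, had 1.45 ± 0.33 (limma adjusted p = 0.0277, kept in 5 of 13 fits without 1 library). Map1lc3a, an autophagosome protein, had 0.76 ± 0.15 (limma adjusted p = 0.0123), with 96.8 to 109 FPKM in EKO at 6 weeks, 175 to 215 FPKM at 22 weeks and 102 to 124 FPKM in DKO.

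Among the 22 genes called lower in that group, Actc1, the actin of heart muscle, had a difference of -3.55 ± 0.64 (limma adjusted p = 0.00706). It lay at 100.1, 103 and 109.5 FPKM in EKO at 6 weeks and at 9.77, 5.07 and 3.15 FPKM at 22 weeks, against 65.9 to 203 FPKM and 49.5 to 139 FPKM in DKO. The summed FPKM of 12 cardiac markers includes Actc1 as its most abundant member, so the sum is not separate from it. That sum lay at 144.0 to 224 in EKO at 6 weeks, 30.9 to 51.0 in EKO at 22 weeks, 86.7 to 944 in DKO at 6 weeks and 85.3 to 528 in DKO at 22 weeks. None of the 12 was at 0 in all libraries, and of 11 tested Actc1 was the only 1 called. The part of attached heart muscle in the result was not tested. Aspn, a small proteoglycan of connective tissue, had -0.80 ± 0.17 (limma adjusted p = 0.0176), at 23.8 to 31.2 FPKM in EKO at 6 weeks, 13.8 to 15.2 FPKM at 22 weeks and 18.4 to 24.3 FPKM in DKO. Sorbs2, a scaffold protein of actin filaments, had -0.91 ± 0.18 (limma adjusted p = 0.0149).

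The counts of the third group moved with single libraries more than those of the parents, which ranged from 150 to 232 called higher. The 70 genes called higher became 119 without DKO NLD 6 weeks replicate 1 and 108 without EKO 6 weeks replicate 1. They became 24 and 43 without EKO 6 weeks replicates 3 and 2, 25 without EKO 22 weeks replicate 1, 30 and 29 without DKO 6 weeks replicates 3 and 4, and 32 and 31 without DKO 22 weeks replicates 1 and 2. The 22 genes called lower became 96 without EKO NLD 6 weeks replicate 1, 39 without DKO 6 weeks replicate 1, and 11 to 14 without DKO 6 weeks replicate 3 or 4, DKO 22 weeks replicate 1 or 2, EKO 6 weeks replicate 2 or 3, or EKO 22 weeks replicate 1.

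Cell type and pathway lists of the diseased artery held few calls. Of 52 lists 36 had no called member; they hold 595 tested members, of which 66 had an unadjusted p under 0.05 by limma, against 2529 of the 12755 genes tested. Macrophage markers had a median difference of 0.26 with 0 of 19 called, and their summed FPKM went from 334 to 510 to 997 to 1524 in EKO and from 276 to 468 to 413 to 1217 in DKO. Foam cell markers had 0.45 with 0 of 14 called, lysosomal proteases and hydrolases 0.15 with 0 of 39, fibrillar collagens and their crosslinking enzymes -0.22 with 0 of 18, elastic fibre genes 0.01 with 0 of 15, chemokines and their receptors 0.30 with 0 of 23 and interferon-stimulated genes 0.17 with 0 of 24. In these 7 lists limma gave 7 genes an unadjusted p under 0.05. A call missed at 3 or 4 libraries a group does not show that the 2 genotypes changed alike.

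Muscle, lymphocyte and red cell markers had medians farther from 0. All 16 smooth muscle markers had a difference below 0, with a median of -0.68, 7 with an unadjusted p under 0.05 and 1 called. Their summed FPKM lay at 12817 to 14958 in EKO at 6 weeks, 5964 to 8349 in EKO at 22 weeks, 9938 to 16087 in DKO at 6 weeks and 7644 to 11236 in DKO at 22 weeks. The called gene is Des, the intermediate filament of muscle, at 53.2 to 64.6 FPKM and 40.4 to 45.5 FPKM in EKO and 36.1 to 43.2 FPKM and 44.3 to 62.6 FPKM in DKO (-0.77 ± 0.18, limma adjusted p = 0.0342, kept in 5 of 13 fits without 1 library). Acta2, the actin of smooth muscle and the most abundant of these markers, had -0.65 ± 0.34 (limma adjusted p = 0.308). Skeletal muscle markers had a median of -1.11 with 0 of 22 called, 1 of them at an unadjusted p under 0.05 by limma.

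T and NK cell markers had a median of 1.28 with 0 of 13 called. Of the 13, 8 had an unadjusted p under 0.05 by limma, against 2529 of 12755 genes tested. The most abundant of them, Thy1 and Ccl5, had -0.19 ± 0.55 and 1.03 ± 0.64 (limma adjusted p = 0.870 and 0.393). B and plasma cell markers had a median of 1.43 with 1 of 7 called, Cd22, an inhibitory receptor of B cells, at 0.235 to 0.450 FPKM and 1.85 to 4.15 FPKM in EKO and 0.557 to 1.11 FPKM and 0.860 to 1.56 FPKM in DKO (1.25 ± 0.29, limma adjusted p = 0.0315). The most abundant B and plasma cell markers, Sdc1 and Igj, had 0.17 ± 0.32 and 2.09 ± 0.76 and were not called (limma adjusted p = 0.798 and 0.164). The summed FPKM of the B and plasma cell list was 16.5 to 23.0 and 25.3 to 70.0 in EKO and 29.5 to 36.8 and 26.7 to 29.3 in DKO. H2-DMb2, which helps load peptides on MHC class II and is the only called gene of 9 in that list, had 1.61 ± 0.39 (limma adjusted p = 0.0386). Hba-a2, a chain of hemoglobin that shares sequence with Hba-a1 and is uncertain for that reason, was at 275 to 389 FPKM and 915 to 1922 FPKM in EKO and 174 to 430 FPKM and 77.4 to 348 FPKM in DKO (2.99 ± 0.72, limma adjusted p = 0.0383). Erythroid markers summed to 5848 to 7546 and 15080 to 33899 FPKM in EKO and to 2354 to 7912 and 2367 to 7590 FPKM in DKO, with 1 of 8 called, although the mice were perfused. Cd22, H2-DMb2 and Hba-a2 kept the call in 5, 4 and 4 of 13 fits that left out 1 library, and the part of attached lymphoid tissue, muscle or blood in these differences was not tested.

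The Western diet (WD) libraries of the same 2 lines and times gave the same measure in samples that the NLD contrast did not use. They were fitted together with the NLD libraries, without EKO WD 22 weeks replicate 2, whose table column is incomplete, so 24 libraries entered. On WD 1050 genes passed the test (8.23% of 12755), 894 higher (7.01%) and 156 lower (1.22%). Over all genes tested 51.7% had the same sign of the difference on both diets. The EKO libraries of both diets carry the mark of a re-analysis, so the 2 diets share the confounding of processing and genotype.

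Most parents and copies called on NLD kept their sign on WD. Of the 210 parents called higher on NLD, 199 had the same sign and 119 were also called higher on WD, and the median was 0.98 on NLD and 0.76 on WD. Of the 47 copies called lower, 46 were also called lower on WD, with medians of -2.47 and -2.59, and Rpl34 had -4.60 on NLD and -4.72 on WD. The 65 ribosomal genes called higher on NLD all had the same sign and 51 were called on WD. Gapdh had 4.76 on WD and Mir1896, Mir1954 and Mir682 had 9.99, 8.95 and -12.28, each called by limma in the same direction.

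Of the 70 genes of the third group called higher on NLD, 33 had the same sign on WD, 11 were called in the same and 1 in the opposite direction, and the median was 0.80 on NLD and -0.02 on WD. Of 84 oxidative phosphorylation genes 19 had the same sign, with a median of 1.03 on NLD and -0.27 on WD, and limma called 0 of them on WD. The difference between the diets was itself tested in each gene and called in 43 of 12755 (0.337%), in 2 of those 70 genes (the exonuclease gene Isg20 and the zinc finger gene Zfp777), and in none of the 84, so for single respiratory genes the diets were not shown to differ. Of lists picked after their values were seen, the macrophage median was 0.26 on NLD and 1.79 on WD, that of foam cell markers 0.45 and 2.92, that of lysosomal proteases and hydrolases 0.15 and 1.03, that of endothelial markers 0.13 and -0.28 and that of fibroblast markers -0.11 and -0.20. Differences over lists were not tested.

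**Figure D5:**
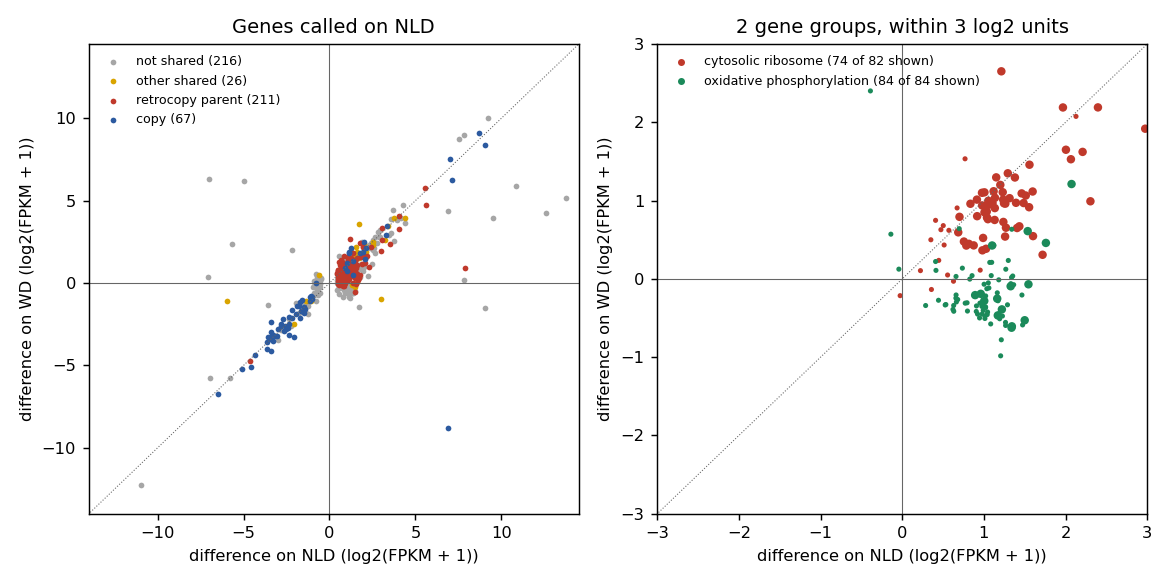
Difference of the changes with time on WD (vertical axis, log2 scale) against that on NLD (horizontal axis), 1 point per gene, for genes called on NLD by class of shared sequence (left) and for ribosomal and oxidative phosphorylation genes within 3 log2 units, with genes called on NLD as larger points (right), and a dotted line of equal values. Called parents and copies lie mostly near the line, and the oxidative phosphorylation genes lie right of 0 on NLD (median 1.03) and around 0 on WD (median -0.27).

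A few shared-sequence genes differed between diets by that test. Rpl35 had 7.89 on NLD and 0.92 on WD, a difference of 6.98 (limma adjusted p = 3.25e-10). Rpl31-ps12, a processed pseudogene of Rpl31 singled out after its values were seen, was at 105, 128 and 109 FPKM in EKO at 22 weeks on NLD and at 0 to 0.204 FPKM in the other 10 NLD libraries, a difference of 6.91 ± 0.14. That value and its small SE rest on groups at or near 0 and on the pseudocount of 1 FPKM, and it is no fold. On WD the difference of Rpl31-ps12 was -8.77, so the diets differed by 15.68 (limma adjusted p = 8.81e-19). Rpl31 itself had 1.21 on NLD and 2.65 on WD, and that contrast was called at -1.44 (limma adjusted p = 0.0351). Among the short RNA genes Mir3101 had -4.96 on NLD and 6.18 on WD (difference -11.14, limma adjusted p = 1.51e-05), and Mir140 had 9.05 and -1.50 (difference 10.55, limma adjusted p = 0.00437).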

How the data were processed

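The authors aligned the reads to mm10, and the submitters' processing notes give TopHat 1.3.2 with Bowtie 0.12.8, Cuffdiff, and SAMtools 0.1.19. The deposited values are FPKM that the authors estimated with Cufflinks, in 1 table of 23284 symbols. Its version, the gene models and the treatment of reads that match several places are not given in the sources used here, nor is the assignment of libraries to lanes. The values give no counts, so count tests were not run and precision from depth is unknown. Values were analysed as log2(FPKM + 1), so the change of low genes is understated. Genes whose mean over the 13 libraries reached 1 FPKM were fitted in limma 3.58.1 (R 4.3.3), with 1 mean per group, trend and robust variance estimation and 9 residual degrees of freedom. Members, classes and gene lists were chosen with earlier results of these data known. Symbols were placed in GENCODE M21, 20911 directly, 1922 through a synonym and 451 not at all. The genes set out to be named were Ppia, Apoa1, Apoe and Atp5h, up to 8 called genes per direction by absolute difference in the parents and in the genes without shared sequence, up to 4 per direction in the copies (each with a group mean of at least 5 FPKM), the 2 called genes of smallest p per list and the 2 most abundant markers per cell type. Many of these markers were left out of the text for room, and genes said to be chosen later were added. Alternatives were other pseudocounts, filters, scalings, weights, sets of libraries, a replicate block, window definitions and leaving out each library. On simulated data of 12755 genes, the fit called 48% of genes changed by 1 log2 unit and 86% of those changed by 2, and 8 unchanged genes.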

Additional observations from a re-analysis of the deposited data

Results flagged for a closer look

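Within DKO at 6 weeks on NLD, the group of 4, Dixon's test at the 95% level set the highest or lowest library apart in 6 of 74 genes looked at. For normally distributed values chance gives about 1 in 20. These libraries were at 39.48 FPKM for Rpl34-ps1, 416.9 FPKM for Mir762, 0 FPKM for Mir5107, 554.3 FPKM for Mir1982, 0 FPKM for Snord83b and 0.204 FPKM for Rpl31-ps12. In Rpl34-ps1 and Rpl31-ps12 the rest of the group was at 0, where any value above 0 passes, so the test cannot judge them.

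The change with time differed between genotypes by limma's test of the difference itself in 70 of the 74 genes. Among retrocopy parents of the ribosome the difference was 7.89 for Rpl35, 5.54 for Rpl21, 4.04 for Rpl7a, 4.02 for Rpl29, 3.53 for Rplp2, 3.06 for Rps12, 3.04 for Rpl17, 1.97 for Rps15a, 1.21 for Rpl31 and -4.60 for Rpl34. Among other parents it was 5.60 for Gapdh, 2.07 for Atp5k, 1.82 for Psme2, 1.79 for Hmgb1, 1.54 for Atp5h, 1.50 for Uqcr11, 1.45 for Mrpl23, 1.42 for Mrpl27, 1.32 for Tyms, 1.23 for Psmb3, 1.10 for Atp5g2, 0.94 for Mcm7, 0.88 for Naca, 0.88 for Eif5a and 0.76 for H3f3a. Among copies and unplaced pseudogenes it was 9.02 for Rpl34-ps1, 8.72 for Gm1821, 7.14 for Gm12070, 6.99 for Gm6793, 6.91 for Rpl31-ps12, -6.49 for Gm6251, -5.10 for Aldoart1, -4.70 for Rplp2-ps1, -4.54 for Csl and -4.31 for BC048507.

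Among short RNA genes the difference was 13.78 for Mir5133, 12.57 for Mir762, 10.83 for Mir5107, 9.52 for Mir3960, 9.22 for Mir1896, 9.05 for Mir140, 7.84 for Mir1982, 7.83 for Mir1954, -10.96 for Mir682, -7.08 for Mir186, -7.04 for Snord83b, -6.94 for Mir707, -5.69 for Snord23 and -4.96 for Mir3101. Among genes with exonic overlap it was 4.16 for Sla2, 3.72 for Wdr92, 3.58 for Snx22, 3.58 for Prss57, -1.26 for Fstl3, 1.25 for Cd22, 1.16 for Ndufa13, 1.00 for Ndufa2 and -0.77 for Des. Among the remaining genes it was 2.99 for Hba-a2, 2.62 for Cpne8, 2.26 for Lars2, 1.61 for H2-DMb2, 1.45 for Glrx5, 1.34 for Ndufs7, 1.34 for Atp5d, 0.76 for Map1lc3a, -0.80 for Aspn, -0.91 for Sorbs2, -3.55 for Actc1 and -5.78 for Aldoart2.

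The difference itself differed between NLD and WD, by limma's test of that contrast, by 15.68 for Rpl31-ps12, 10.55 for Mir140, 7.66 for Mir1982, 6.98 for Rpl35, -0.77 for Mir1896, -1.44 for Rpl31 and -11.14 for Mir3101.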

How the results depend on the processing

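Of 70 called genes named in the text 22 kept the call under every alternative, and 178 of 1708 values lost it, with 0 reversed. More genes were called higher than lower under every alternative. An absolute difference of at least 1 left 234 genes called higher. Without the filter on low values 650 genes were called higher, 309 of them without shared sequence (under 5% of their windows shared). With a mean of at least 5 FPKM 66 were called lower, among them 31 copies and 29 genes without shared sequence. Median-ratio rescaling left 102 genes without shared sequence called higher, and rescaling over those genes alone gave 312 higher and 114 lower in all. Array weights gave 824 higher and 283 lower, with 446 and 205 among genes without shared sequence. With the spread of all 25 libraries, the incomplete one included, 66 were called higher (12 parents, 34 without shared sequence) and 64 lower (16 without shared sequence). Chosen after seeing the data, a fit of the genes without shared sequence alone called 102 higher and 25 lower, and leaving out short RNAs and overlapping genes left 70 and 22. When 1 library was left out, genes called higher ranged from 288 to 534 and lower from 81 to 200, parents higher from 150 to 232, copies lower from 44 to 48, and genes without shared sequence from 97 to 249 higher and from 26 to 136 lower.

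The replicate numbers do not pair the libraries, since same-numbered libraries had a median correlation of 0.031 over 18 pairs (-0.41 to 0.24) and 2 of 12 libraries fitted best with their own number. With the replicate number as a block 232 genes were called higher, 120 of them parents and 75 without shared sequence, and 22 genes without shared sequence lower. DKO NLD 6 weeks replicate 4 is the only library of its number, so the block in effect took it out of the comparison. The median difference was 0.0676 both with the block and without that library, where 325 genes were called higher. Beyond this the cause of these shifts was not tested. Unknown depth limits what can be said of genes at low FPKM.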
